A study of Mus musculus with 14 samples.

Results

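A set of 9 genes of brain blood vessels and of vascular endothelial growth factor (VEGF) signalling was followed in the suprachiasmatic nucleus (SCN), the hypothalamic clock, of wild-type and Vipr2-/- mice. They were the VEGF ligand gene Vegfa, the VEGF receptor genes Kdr and Flt1, the angiopoietin receptor gene Tek, and the endothelial genes Cldn5, Cdh5, Pecam1, Slco1a4 and Ly6c1. The members were taken by gene symbol, 9 of 55401 genes in the table, and all 9 were among the 18175 genes tested. Kdr was named in the choice because it was listed at 0 in unexercised Vipr2-/- libraries. Its comparisons with that group are therefore descriptions, and no test of them is read as a result.

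The study sequenced total RNA of laser-captured SCN from adult male C57BL/6 mice more than 8 weeks old in 14 libraries. Wild-type (Vipr2+/+) mice and Vipr2-/- mice, which lack the VPAC2 receptor for the neuropeptide VIP, either free-ran throughout with no exercise schedule (nSVE) or received scheduled voluntary exercise (SVE). All mice spent 14 days in a cycle of 12 h light and 12 h dark and then lived in constant darkness. The 4 groups were WT nSVE (n = 4 libraries), WT SVE (n = 4), Vipr2-/- nSVE and Vipr2-/- SVE (n = 3 libraries each). Mice in nSVE free-ran until they were culled at circadian time (CT) 14. Mice in SVE free-ran for 14 days, then had wheel running restricted to 6 h in every 24 h, and were culled once entrained, 2 h after the wheel became available. Wild-type mice needed 35 to 40 days to entrain, against 6 to 9 for Vipr2-/-, and the sampling time of WT SVE is not settled by the sources. The extraction protocol gives ZT14 for all SVE mice, whereas the series design text adds CT24 for WT SVE and CT14 for Vipr2-/- SVE. Mice that did not entrain and arrhythmic Vipr2-/- nSVE mice were left out by the submitters. No label states that each library is its own animal. The p-values therefore measure the library spread, which may be technical.

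VEGF-A, the product of Vegfa, is secreted by neurons and glia and acts on the endothelial cells that line vessels. VEGFR2, encoded by Kdr, carries most of its growth and permeability signal, whereas VEGFR1, encoded by Flt1, binds the ligand tightly, signals weakly and limits what reaches VEGFR2. Brain endothelium also forms the blood-brain barrier, with tight junctions between cells and transporters in their membranes.

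Depth ranged from 17709080 to 48794679 reads per library, and 1 read was worth 0.687 to 1.53 in normalized value. Vipr2 checked the genotype labels, with a normalized value of 6656 ± 341 (SD, n = 4) in WT nSVE, 8192 ± 1483 (n = 4) in WT SVE, 178 ± 37.3 (n = 3) in Vipr2-/- nSVE, and in Vipr2-/- SVE 176 ± 77.9 (n = 3). The share of tested genes at 0 was 6.94% ± 1.66 in WT nSVE, 3.21% ± 1.54 in WT SVE, 14.5% ± 5.32 in Vipr2-/- nSVE and 10.3% ± 6.17 in Vipr2-/- SVE. The emptiest libraries were Vipr2-/- nSVE 3, with 20.7% of tested genes at 0, and Vipr2-/- SVE 3, with 16.3%. Of the 10 neuronal and SCN markers, all tested, the more SCN-specific ones were read in every library, with lowest values of 1569 for Six6, 2086 for Lhx1, 2428 for Vip and 3203 for Avp. These are bulk samples, so fewer endothelial cells and less RNA per endothelial cell cannot be told apart.

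Vegfa, the ligand gene (ENSMUSG00000023951.18, chr17:46016993-46032369, minus strand, GRCm38), was the only one of the 9 genes that passed the test with exercise in wild type. Its normalized value was 871, 785, 867 and 788 in the WT nSVE libraries. It was 1344, 1105, 1104 and 1576 in WT SVE. Every exercised wild-type library was above every unexercised one. The means were 828 ± 47.6 (SD, n = 4) and 1282 ± 226 (SD, n = 4), and Vegfa rose 1.53-fold with exercise (log2 fold change 0.62, 95% interval 0.32 to 0.92, limma adjusted p = 0.0448). Of 9 members, 1 was called higher, against 1.02% of all tested genes. Its groups did not overlap, and 8.61% of all tested genes were likewise higher without overlap. The call was at the edge of the threshold, since the adjusted p ran from 0.0286 to 0.204 over the 14 omissions of 1 library and passed in 5 of them. Without the filter on low values it was 0.056. Leaving out any 1 of the 8 wild-type libraries gave 0.0546 to 0.204, and leaving out Vipr2-/- SVE 1 gave 0.0503. If WT SVE was sampled at CT24, circadian time cannot be told apart from exercise in wild type, and the 35 to 40 days to entrainment cannot either. The choroid plexus marker Ttr, named after its values were seen, was also higher in every WT SVE library, at 446, 421, 330 and 2382, than in every WT nSVE library, at 44.5, 35.1, 99.8 and 61.8, without passing (log2 fold change 3.45, limma adjusted p = 0.363). WT SVE 4 had both the highest Ttr and the highest Vegfa, and without it the log2 fold change of Vegfa was 0.51 (adjusted p = 0.204). In Vipr2-/- nSVE, Ttr was 0, 0 and 333, beside Vegfa of 689, 676 and 749. In Vipr2-/- SVE it was 532, 63.7 and 11.4, beside Vegfa of 825, 852 and 786. The summed choroid plexus and ependymal value was 863 to 1769 in WT nSVE and 1067 to 3784 in WT SVE, with the choroid gene Folr1 at 0 in 3 and 1 of these libraries. The part of choroid plexus RNA in the Vegfa result was not tested.

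**Figure D1:**
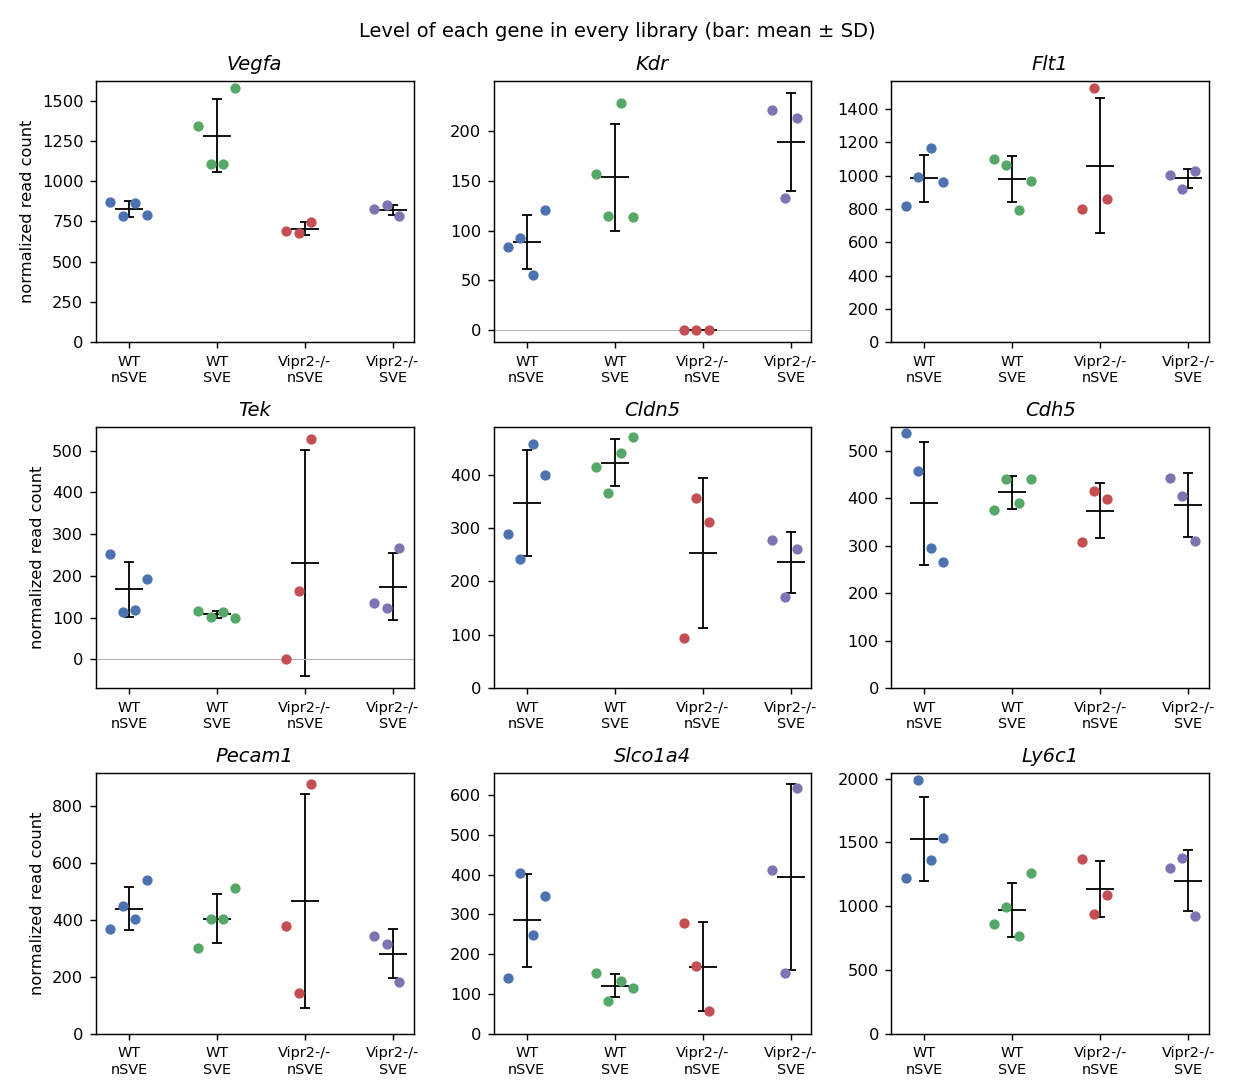
Normalized value of each of the 9 genes in each library, with groups on the horizontal axis and the DESeq2-normalized value on the vertical axis. Points are libraries, and black bars are group means with their SD. The 3 Vipr2-/- nSVE libraries have Kdr at 0, and the 4 WT SVE libraries have the highest Vegfa values.

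In Vipr2-/- mice, Vegfa was 689, 676 and 749 without exercise and 825, 852 and 786 with it. Again every exercised library was above every unexercised one, as in 5.28% of tested genes. The means were 705 ± 39.2 (SD, n = 3) and 821 ± 32.7 (SD, n = 3), with a log2 fold change of 0.22 (95% interval -0.13 to 0.57) that did not pass (limma adjusted p = 0.555). The difference between the exercise responses of the genotypes, Vipr2-/- minus wild type, was -0.40 on the log2 scale (95% interval -0.86 to 0.06) and did not pass either (adjusted p = 0.532), as for all but 0.022% of tested genes. Ordered by mean, WT SVE came first, WT nSVE and Vipr2-/- SVE overlapped in the middle, and Vipr2-/- nSVE was lowest and below every library of the other groups.

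Between the genotypes, Vegfa was lower in every Vipr2-/- library than in every wild-type library, both without exercise and with it. Groups did not overlap in the lower direction in 6.25% of tested genes under nSVE and in 8.18% under SVE. Under nSVE the log2 fold change was -0.23 (95% interval -0.56 to 0.09, limma adjusted p = 0.504). Under SVE it was -0.63 (95% interval -0.95 to -0.30, adjusted p = 0.130), a comparison that shares the WT SVE libraries with the exercise comparison above. Time to entrainment, and sampling time if WT SVE was taken at CT24, also differed between these groups and cannot be told apart from genotype. DESeq2 on the recovered reads called the second difference (adjusted p = 0.00842), and limma called it when Vipr2-/- SVE 2 was left out (adjusted p = 0.0414).

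Kdr, the main signalling receptor gene for VEGF-A (ENSMUSG00000062960.10, chr5:75932827-75978458, minus strand, GRCm38), was listed at 0 in all 3 Vipr2-/- nSVE libraries and measured in the other 11. Its value was 83.5, 92.8, 55.2 and 121 in WT nSVE, from 47 to 135 reads. It was 156, 114, 228 and 114 in WT SVE, from 133 to 281 reads. It was 221, 133 and 213 in Vipr2-/- SVE, from 149 to 280 reads. All 3 Vipr2-/- SVE libraries lay inside the WT SVE range, and the 0 belonged to unexercised Vipr2-/- libraries alone. Against a floor of 3 reads over the 3 Vipr2-/- nSVE libraries, equal to a value of 1.19, Kdr was at least 74.3-fold higher in WT nSVE and at least 159-fold higher in Vipr2-/- SVE. These bounds describe the pattern for which Kdr was chosen, and they allow for counting error alone. In these 3 Vipr2-/- nSVE libraries 7.71%, 9.25% and 30.9% of tested genes of a like WT nSVE level were at 0. The bounds are therefore not firm lower limits.

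Where the choice did not use the values, Kdr did not pass the test. Its mean was 88.1 ± 27.1 (SD, n = 4) in WT nSVE and 153 ± 54.0 (SD, n = 4) in WT SVE, with a log2 fold change of 0.78 (95% interval -0.50 to 2.07, limma adjusted p = 0.703). Under SVE the mean was 189 ± 49.1 (SD, n = 3) in Vipr2-/-, with a log2 fold change against wild type of 0.33 (95% interval -1.06 to 1.71, adjusted p = 0.860).

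Flt1, which encodes the ligand-trapping receptor (ENSMUSG00000029648.13, chr5:147561604-147726011, minus strand, GRCm38), was read in every library. It was 820, 993, 1164 and 959 in WT nSVE and 1097, 1064, 793 and 965 in WT SVE. It was 797, 1524 and 860 in Vipr2-/- nSVE and 1003, 919 and 1028 in Vipr2-/- SVE. The groups overlapped in every comparison, and the highest value was only 1.92 times the lowest. The difference between genotypes was 0.05 without exercise (log2, 95% interval -0.39 to 0.50, limma adjusted p = 0.931) and 0.01 with it (95% interval -0.43 to 0.46, adjusted p = 0.985).

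The windows before the starts of both receptor genes and of the ligand gene are shown because these genes encode the ligand and its receptors. Each is the 250 bases before the RefSeq start in GRCm38, on the minus strand, at chr5:75978456-75978705 for Kdr, chr5:147726012-147726261 for Flt1 and chr17:46032378-46032627 for the outer Vegfa start. Capitals mark matches, on either strand, to the hypoxia-inducible factor core (ACGTG or GCGTG) or the ETS factor core (CGGAAG or AGGAAG).
Kdr: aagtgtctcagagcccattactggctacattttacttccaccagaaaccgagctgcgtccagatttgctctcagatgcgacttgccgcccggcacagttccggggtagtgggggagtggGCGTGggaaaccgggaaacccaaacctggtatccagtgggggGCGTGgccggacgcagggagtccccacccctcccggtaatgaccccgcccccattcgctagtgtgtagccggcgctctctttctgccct
Flt1: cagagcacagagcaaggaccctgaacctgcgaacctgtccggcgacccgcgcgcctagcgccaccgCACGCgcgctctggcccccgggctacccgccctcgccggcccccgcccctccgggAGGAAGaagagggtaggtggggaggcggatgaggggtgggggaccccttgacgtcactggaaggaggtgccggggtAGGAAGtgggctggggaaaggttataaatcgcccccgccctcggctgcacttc
Vegfa: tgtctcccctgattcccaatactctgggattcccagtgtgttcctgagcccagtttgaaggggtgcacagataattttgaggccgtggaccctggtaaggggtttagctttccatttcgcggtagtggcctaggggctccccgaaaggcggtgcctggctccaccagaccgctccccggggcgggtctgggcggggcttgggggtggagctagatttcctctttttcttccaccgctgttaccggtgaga
The Kdr window held 2 matches to GCGTG, at -131 to -127 and -89 to -85 from the start. The Flt1 window held 1 match to the hypoxia core, read on the opposite strand, and 2 matches to AGGAAG, at -129 to -124 and -53 to -48. The outer Vegfa window held none of them. The window of a second, inner Vegfa start, at chr17:46025164-46025413, held 2 matches to the hypoxia core. They were GCGTG at -218 to -214 and, on the opposite strand, ACGTG at -211 to -207. That window lies inside the Vegfa gene and is transcribed from the outer start, so its matches need not be promoter sequence. None of these windows held the E-box CACGTG, which contains ACGTG and so overlaps the hypoxia core. Over 32851 mouse windows of the same length, 38.6% held the hypoxia core, 39.2% the ETS core and 6.02% the E-box. RefSeq windows were matched for 7 of the 9 genes.

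Of the 8 endothelial members, Kdr alone was at 0 in every Vipr2-/- nSVE library, the pattern for which it was chosen. Kdr made up 2.08% ± 0.599 (SD, n = 4) of the reads of the 8 endothelial genes in WT nSVE, 4.39% ± 1.88 (n = 4) in WT SVE and 4.88% ± 1.04 (n = 3) in Vipr2-/- SVE. In Vipr2-/- nSVE it made up 0 of 2223, 0 of 2421 and 0 of 4892 reads, which at a limit of 3 reads allows shares of up to 0.135%, 0.124% and 0.0613%. The exact 95% intervals reach slightly higher, to 0.166%, 0.152% and 0.0754%. These limits, like the intervals of shares, reflect counting error alone, as no molecular identifiers were reported. The lowest share elsewhere was 1.34%, in WT nSVE 3. The summed value of the 7 other endothelial genes was 3685 ± 447 in Vipr2-/- nSVE, inside the range of group means from 3417 ± 345 in WT SVE to 4139 ± 425 in WT nSVE. Ly6c1 supplied much of this sum. Without it the sum was 1853, 2773 and 3030 in Vipr2-/- nSVE and 2086 to 2701 in the other groups, so that these 3 libraries held both the lowest and the highest values. Vipr2-/- nSVE 1, the lowest, was also the library with Tek at 0 and the lowest Cldn5.

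**Figure D2:**
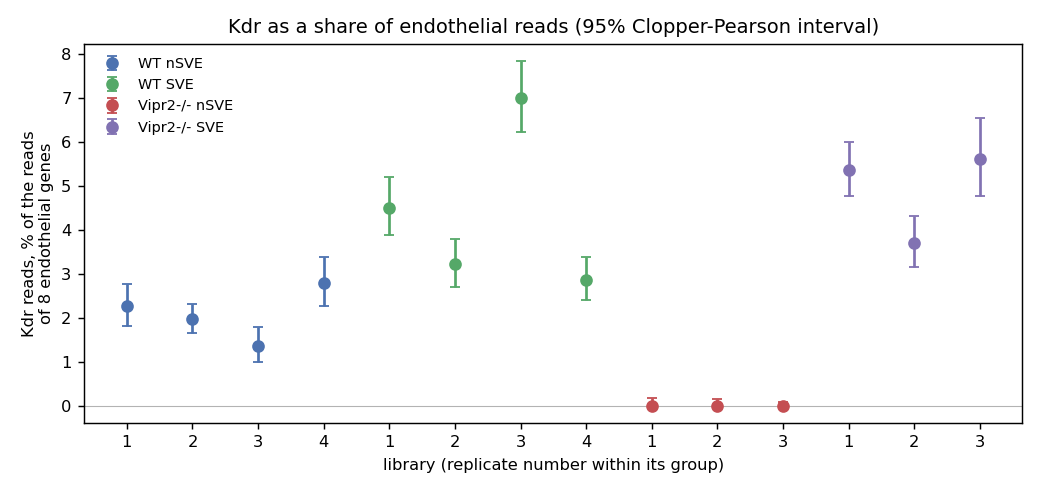
Share of Kdr reads among the reads of the 8 endothelial genes in each library, in percent, with exact 95% Clopper-Pearson intervals. The 3 Vipr2-/- nSVE libraries sit at 0, and the other 11 lie between 1.34% and 7.00%.

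Kdr was not the only gene of its level at 0 in all 3 Vipr2-/- nSVE libraries. Of 2907 tested genes whose WT nSVE mean lay between 44.1 and 176, 58 (2.00%) were at 0 in all 3 of these libraries, and 11 (0.378%) in all 3 Vipr2-/- SVE libraries. Of the 2907, 7 (0.241%), Kdr among them, were at 0 in all 3 Vipr2-/- nSVE libraries and above 0 in the other 11. By group means, 20 (0.688%), Kdr again among them, were at 0 in all 3 with a Vipr2-/- SVE mean at or above that of WT nSVE. Per library, 7.71%, 9.25% and 30.9% of the 2907 genes were at 0 in Vipr2-/- nSVE, against 0.344% to 2.51% in wild type. The part of these sparser libraries in the Kdr zeros was not tested.

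**Figure D3:**
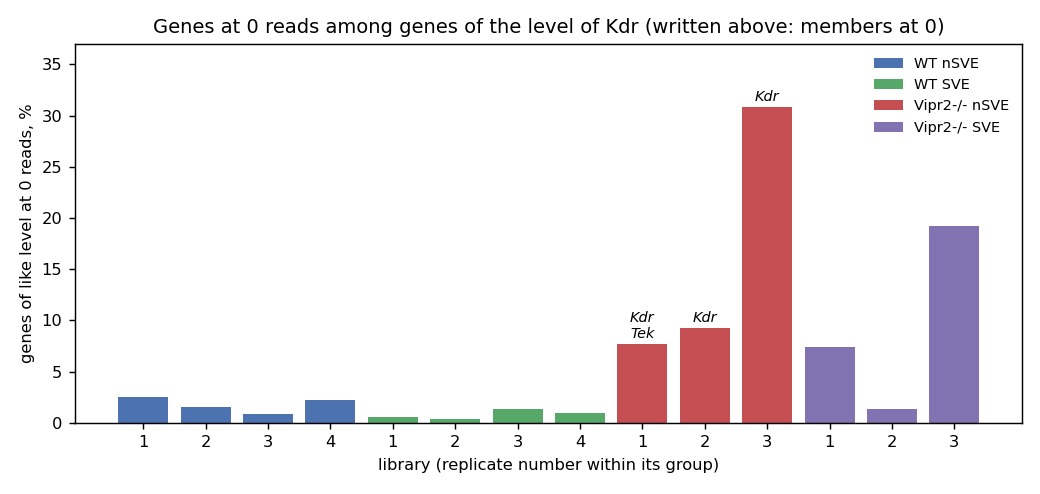
Share of tested genes at 0 in each library, in percent, for genes with a WT nSVE mean from 0.5 to 2 times that of Kdr, with members at 0 written above the bars. Vipr2-/- nSVE 3 is highest at 30.9%, and the wild-type libraries lie between 0.344% and 2.51%.

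Tek, which encodes the Tie2 receptor for angiopoietins (ENSMUSG00000006386.15, chr4:94739289-94874976, plus strand), was the other member with a 0. It was 0, 164 and 529 in Vipr2-/- nSVE, from 0, 107 and 628 reads. It was 252, 113, 117 and 192 in WT nSVE, 116, 102, 113 and 99.97 in WT SVE, and 134, 123 and 266 in Vipr2-/- SVE. The zero and the highest value thus came from the same group, so the sign of its difference depended on the scale: the log2 fold change of Vipr2-/- against wild type under nSVE was -1.85 (95% interval -4.81 to 1.11, limma adjusted p = 0.562), whereas the ratio of means was 1.37. Of 3604 genes at 0.5 to 2 times the level of Tek in the other libraries, 69 (1.91%) were at 0 in Vipr2-/- nSVE 1. Under SVE every Vipr2-/- library was above every wild-type one, as in 5.96% of tested genes, with a log2 fold change of 0.60 (95% interval -2.36 to 3.57, adjusted p = 0.880).

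Of the junction genes, Cldn5, which encodes the main tight-junction claudin of the blood-brain barrier (ENSMUSG00000041378.2, chr16:18776847-18778262, plus strand), had lower means in both Vipr2-/- groups, without passing the test. It was 288, 243, 458 and 400 in WT nSVE and 414, 365, 440 and 471 in WT SVE. It was 92.9, 355 and 311 in Vipr2-/- nSVE and 277, 170 and 260 in Vipr2-/- SVE. The genotypes overlapped without exercise (log2 fold change -0.63, limma adjusted p = 0.498), and without Vipr2-/- nSVE 1 the difference was -0.017. They did not overlap under SVE, as in 8.18% of tested genes, where Cldn5 was 423 ± 44.6 (SD, n = 4) in wild type and 236 ± 57.5 (SD, n = 3) in Vipr2-/-, a log2 fold change of -0.87 (95% interval -1.74 to 0.0050, adjusted p = 0.335).

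Cdh5, the VE-cadherin of adherens junctions (ENSMUSG00000031871.9, chr8:104101625-104144511, plus strand), was 389 ± 130 (SD, n = 4) in WT nSVE, 412 ± 33.9 (n = 4) in WT SVE, 374 ± 57.8 (n = 3) in Vipr2-/- nSVE, and in Vipr2-/- SVE 386 ± 68.0 (n = 3). All its groups overlapped, and its log2 fold changes ran from -0.11 to 0.14 over the 4 comparisons of single effects. Pecam1, the CD31 adhesion molecule (ENSMUSG00000020717.19, chr11:106654217-106750628, minus strand), was 377, 142 and 876 in Vipr2-/- nSVE, so that its lowest and its highest library lay in the same group. Its value was 302 to 538 in the wild-type libraries and 343, 315 and 183 in Vipr2-/- SVE, and no comparison of it passed (limma adjusted p from 0.588 to 0.981 over the same 4).

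Slco1a4, an organic anion transporter of the blood-brain barrier (ENSMUSG00000030237.14, chr6:141805440-141856199, minus strand), had exercise differences of opposite sign in the 2 genotypes, and neither passed the test. It was 140, 406, 249 and 347 in WT nSVE and 152, 83.1, 132 and 116 in WT SVE. It was 279, 172 and 56.4 in Vipr2-/- nSVE and 412, 153 and 619 in Vipr2-/- SVE. The exercise difference was -1.16 in wild type (log2, 95% interval -2.30 to -0.02, limma adjusted p = 0.388) and 1.28 in Vipr2-/- (95% interval -0.04 to 2.59, adjusted p = 0.371). The difference between these was 2.44 (95% interval 0.70 to 4.18) at an adjusted p of 0.394. Under SVE every Vipr2-/- library was above every wild-type one, as in 5.96% of tested genes, but the nearest libraries of the groups were at 153 and 152. The log2 fold change was 1.52 (95% interval 0.29 to 2.75, adjusted p = 0.250). Close paralogs of this transporter gene exist, so its read assignment is uncertain.

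Ly6c1, a surface protein gene of brain endothelium (ENSMUSG00000079018.10, chr15:75044018-75048830, minus strand), was lower with exercise in wild type, again without passing. It was 1221, 1985, 1365 and 1533 in WT nSVE and 864, 991, 766 and 1259 in WT SVE, so that the groups overlapped by 1 library. It was 1373, 936 and 1089 in Vipr2-/- nSVE and 1302, 1375 and 924 in Vipr2-/- SVE. The log2 fold change in wild type was -0.65 (95% interval -1.07 to -0.24, limma adjusted p = 0.130), and DESeq2 on the recovered reads called it (adjusted p = 0.0393). Ly6c2 is a near-identical neighbour, so this assignment is uncertain too.

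**Figure D4:**
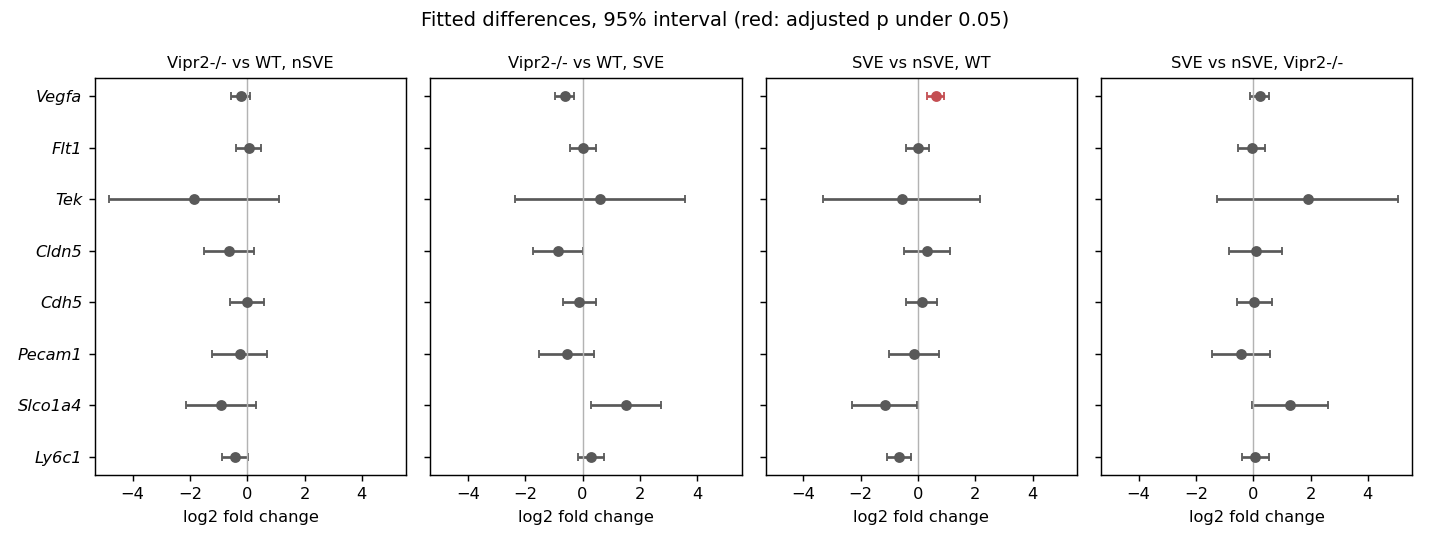
Log2 fold change with its 95% interval for the 8 genes other than Kdr in the 4 comparisons of single effects. Vegfa with exercise in wild type is the one called at an adjusted p under 0.05.

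Counted over all members, 1 of 9 was called in the comparison of genotypes under nSVE, Kdr, as were 0.611% of all tested genes, and the same count held with exercise in Vipr2-/-, against 0.116%. Because Kdr was chosen on that group, neither count is read as a result. Under SVE 0 of 9 were called between genotypes by limma, against 0.176% of all tested genes. At an unadjusted p under 0.05 there were 2 of 9, against 15.0% of all tested genes. By edgeR 0 of 9 were called, with 22 of all 18175 tested genes, and by DESeq2 1 of 9, with 484. The median log2 fold change of the 7 endothelial genes without Kdr was -0.42 between genotypes under nSVE, with 6 of 7 below 0, beside -0.10 and 58.9% below 0 over all tested genes. By edgeR and DESeq2 on recovered reads 4 of 7 were below 0, with medians of -0.075 and -0.059. Under SVE it was 0.01, beside -0.10. With exercise it was -0.13 in wild type, beside 0.03, and 0.08 in Vipr2-/-, beside 0.04.

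Per kilobase of exon, with the union of annotated exons as length, the mean normalized value over the 4 groups was highest for Ly6c1 at 720 and lowest for Kdr at 11.9. Cldn5 was at 222, Vegfa at 212, Cdh5 at 92.8, Flt1 at 74.2, Pecam1 at 63.8, Slco1a4 at 37.8 and Tek at 36.2. Kdr was thus the weakest gene of the set per length even where it was detected, at 9.76 in WT nSVE, 17.0 in WT SVE and 20.9 in Vipr2-/- SVE.

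Further vascular genes were read from lists. Over all tested genes and the 5 comparisons, 13.2% of results had an unadjusted p under 0.05. Of 32 further endothelial genes, limma called 0 in any of the 5 comparisons, with 21 of 160 results (13.1%) at an unadjusted p under 0.05, close to that background, 0 called by edgeR and 3 by DESeq2. The DESeq2 calls were the junction gene Tjp1 in the genotype comparison under nSVE and with exercise in Vipr2-/-, and Vwf, the von Willebrand factor gene, in the former. Tjp1 had a log2 fold change of -0.69 (limma adjusted p = 0.0832) and Vwf of 1.30 (adjusted p = 0.116) between genotypes under nSVE. The directions of Tjp1 and Vwf differed. The summed value of 31 of these genes, without the very abundant Spock2, was 20096 ± 1965 in Vipr2-/- nSVE and 21289 ± 1259 in WT nSVE. Abundant genes such as Pltp and Slc2a1 supplied much of this sum, so it says little of weaker genes. Among these, Emcn was 59.5, 55.2 and 0 in Vipr2-/- nSVE, Ocln 81.3, 185 and 0, and Icam2 183, 0 and 0. Erg and Sox17 were at 3.37 and 4.21 in Vipr2-/- nSVE 3. Icam2 was also at 0 in WT nSVE 1 and Vipr2-/- SVE 3. None of the 32 was at 0 in every Vipr2-/- nSVE library. Of 15 genes of the VEGF and angiopoietin pathway, 12 were tested and 0 were called by limma, edgeR or DESeq2, with 8 of 60 results (13.3%) at an unadjusted p under 0.05. Of 14 hypoxia factors and targets, 0 were called by limma or edgeR and 1 result by DESeq2, with 12 of 70 (17.1%) at an unadjusted p under 0.05. In the comparison in which Vegfa rose, 11 of these 14 were below 0, beside 47.2% of all tested genes. Their median was -0.14, beside 0.03 over all genes. Of the 3 above 0, Adm was higher in every WT SVE library than in every WT nSVE library, as in 8.61% of tested genes. Its values were low, at 22.5 ± 5.03 (SD, n = 4) and 3.38 ± 4.46 (n = 4). It did not pass (log2 fold change 3.10, limma adjusted p = 0.186), and 2 of the 14 were lower throughout. The part of hypoxia in the Vegfa result was not tested.

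Markers of other cells were read beside these results. Of 5 red-cell genes, Hbb-bs fell from 1109 ± 296 to 508 ± 152 (SD, n = 4 each, log2 fold change -1.13, limma adjusted p = 0.0350) and Hbb-bt from 703 ± 227 to 265 ± 118 (-1.45, adjusted p = 0.0437) with exercise in wild type, the comparison in which Vegfa rose. Summed red-cell value was 3517 to 8262 in WT nSVE and 2140 to 5765 in WT SVE, 3210 to 5277 in Vipr2-/- nSVE and 1413 to 2816 in Vipr2-/- SVE. Among pericyte and smooth muscle genes 12 of 13 were tested, and 0 were called by limma, edgeR or DESeq2. Of their 60 results, 4 (6.67%) had an unadjusted p under 0.05, beside 13.2% over all tested genes. The same tools called 0 of 5 fibroblast genes, 0 of 5 choroid plexus and ependymal genes and 0 of 7 microglial genes. At an unadjusted p under 0.05 were 1 of 25 fibroblast results (4%), 2 of 25 choroid plexus and ependymal results (8%) and 2 of 35 microglial results (5.71%). The fibroblast sum was 48.8 to 1489 in Vipr2-/- nSVE, 664 to 994 in WT nSVE, 736 to 907 in WT SVE and 659 to 828 in Vipr2-/- SVE. Aldoc of astrocytes rose in Vipr2-/- under nSVE (0.76, adjusted p = 0.0249), and Mobp of oligodendrocytes fell there (-1.68, adjusted p = 2.1e-05), under SVE (-0.87, adjusted p = 0.0162) and with exercise in wild type (-0.68, adjusted p = 0.0194). The neuropeptide genes Vip (-0.92, adjusted p = 0.0191) and Avp (-1.13, adjusted p = 0.0341) fell in Vipr2-/- under nSVE, and Avp fell under SVE (-1.62, adjusted p = 0.00642). The part of these cells in the Kdr and Vegfa results was not tested.

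The genes with profiles most like the members were found by root mean square difference of the centred log2 values over the 14 libraries. Nearest to Kdr were Gm1848 at 0.56, Syk at 0.67 and Carnmt1 at 0.88, beside a median of 2.95 over all tested genes, and all 3 were at 0 in every Vipr2-/- nSVE library. Nearest to Flt1 were Ubtf at 0.15, Cdkn2d at 0.17 and Sdhaf2 at 0.17 (median 0.55). Nearest to Vegfa were Ppp1r37 at 0.13, Trim46 at 0.15 and Gpr162 at 0.15 (median 0.62). Nearest to Cldn5 were Arhgap24 at 0.36, Ahsa1 at 0.37 and Rgs20 at 0.37 (median 0.80). These likenesses are descriptions, and the Kdr list shares with Kdr the zeros by which it was chosen.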

How the data were processed

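Total RNA of laser-captured SCN was amplified and sequenced as paired ends in 14 libraries, grouped by sample title. Per the series design text, reads were trimmed with Trimmomatic, aligned with HISAT2 to GRCm38, counted with StringTie and annotated with GENCODE; the submitters' processing notes name GRCm39. Coordinates of 54349 of 55401 genes were those of GENCODE M21 on GRCm38, so that build is given. The deposited signal values are gene counts that the authors divided by DESeq2 size factors. They were whole multiples of 1 read in 100% of values (tolerance 0.001 read), so reads were recovered from them. Log2(value + 1) was tested with limma 3.58.1 (R 4.3.3, mean-variance trend, 4 group means) over 18175 genes that reached 10 in 3 or more libraries. P-values were adjusted over all of them (Benjamini-Hochberg, called under 0.05). Fold changes are on the log2(value + 1) scale, which understates changes of low genes. The scripts were tested on simulated data. Alternatives were edgeR 4.0.16 and DESeq2 1.42.0 on recovered reads, pseudocounts, filters, TMM, 2 groups at a time, a replicate block and single omissions. The 9 genes, the 11 lists and the tests were chosen with earlier results of these data known. The text names all members, list genes that were called, and the 3 nearest profiles of 4 members. Tjp1, Vwf, Spock2, Pltp, Slc2a1, Emcn, Ocln, Icam2, Erg, Sox17, Ttr, Folr1, Adm, Six6 and Lhx1 were named after their values were seen.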

Additional observations from a re-analysis of the deposited data

Results flagged for a closer look

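Kdr was picked out because its response to exercise differed between the genotypes. The exercise difference in Vipr2-/- minus that in wild type was 6.75 on the log2(value + 1) scale . This size depends on the pseudocount, because Kdr was at 0 in all 3 Vipr2-/- nSVE libraries. The gene had been chosen for that zero, so the value is a description and its test is not read as a result. With those zeros, all 3 Vipr2-/- SVE libraries, where Kdr was detected, were necessarily above all 3 Vipr2-/- nSVE libraries. The wild-type groups overlapped. No library of the wild-type groups stood apart from its group by Dixon's test for any of the 9 genes; groups of 3 were not tested.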

How the results depend on the processing

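Of the members' log2 fold changes under alternatives, 993 kept their direction and their side of the threshold, 57 changed sign, 17 were no longer called and 4 became called. Some of the 993 could not change direction. In limma, another filter, or the omission of a library outside the compared groups, leaves the log2 fold change as it was. Vegfa with exercise in wild type was no longer called without the filter (limma adjusted p = 0.056), and stayed called with other pseudocounts, a filter of 50, TMM, edgeR and DESeq2. For Kdr in the 3 Vipr2-/- nSVE libraries, the floor of 3 reads over the group equals a value of 1.19. It allows for counting error alone and is not a firm limit. Vipr2-/- nSVE 3, with 33349291 reads, had 20.7% of tested genes at 0, against 7.86% in WT nSVE 4 with 20833250 reads. The omission of the sparsest Vipr2-/- libraries was chosen after seeing the data. The cause of the changes below was not tested.

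Counts of genes called moved as follows. Between genotypes under nSVE 111 genes were called, against 525 by DESeq2, 53 with only the 2 groups, 232 without the sparsest libraries, and 36 (without WT nSVE 3) to 269 (without Vipr2-/- nSVE 1) over single omissions. Under SVE 32 were called, against 484 by DESeq2, 13 with 2 groups, and 10 (without Vipr2-/- SVE 3) to 1100 (without Vipr2-/- SVE 2). With exercise in wild type 233 were called, against 708 by DESeq2, 1201 with 2 groups, 739 without the sparsest libraries, and 29 (without WT SVE 1) to 429 (without Vipr2-/- nSVE 3). With exercise in Vipr2-/- 21 were called, against 5 with a pseudocount of 10, 6 with no filter, 6 with a filter of 50, 6 by edgeR, 394 by DESeq2, 0 with 2 groups, 39 without the sparsest libraries, and 6 (without Vipr2-/- SVE 1) to 177 (without Vipr2-/- nSVE 1). For the difference of responses 4 were called, against 175 by DESeq2, 13 without the sparsest libraries, and 1 (without WT SVE 1) to 36 (without Vipr2-/- nSVE 1).

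Of the 9 members, 0 were called between genotypes under SVE, against 1 by DESeq2 and 0 to 1 over omissions. With exercise in wild type 1 was called, against 0 with no filter, 2 by DESeq2, 2 with 2 groups and 0 to 1 over omissions. With exercise in Vipr2-/- 1 was counted, against 0 with 2 groups. It was Kdr, chosen for its zeros in that comparison, so the count is not read as a result. For the difference of responses 1 was counted, Kdr, whose zeros chose it, against 0 with a pseudocount of 10 and 0 to 1 over omissions. The Kdr share without Slco1a4 and Ly6c1 was 3.65% in WT nSVE and 8.33% in Vipr2-/- SVE.

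Log2 fold changes that changed sign were as follows. Between genotypes under nSVE, Pecam1 was 0.073 by edgeR and 0.087 by DESeq2, and Tek 0.45 and 0.46. Under SVE, Flt1 was -0.0024 with TMM, -0.013 by edgeR and -0.019 without the sparsest libraries, where Cdh5 was 0.042. With exercise in wild type, Flt1 was 0.0023 with TMM and 0.0025 by edgeR. With exercise in Vipr2-/-, Cldn5 was -0.10 by edgeR and -0.11 by DESeq2, Tek -0.41 and -0.40, and Pecam1 0.50 without the sparsest libraries. For the difference of responses without those libraries, Pecam1 was 0.63 and Cdh5 0.10. Over single omissions under nSVE between genotypes, Flt1 ran from -0.24 to 0.23, Pecam1 from -0.90 to 0.40, Cdh5 from -0.17 to 0.17 and Tek from -3.64 to 0.88. Under SVE, Flt1 ran from -0.083 to 0.072 and Cdh5 from -0.21 to 0.042. With exercise in wild type, Flt1 ran from -0.09015 to 0.092, Pecam1 from -0.25 to 0.0026 and Cdh5 from -0.022 to 0.31. With exercise in Vipr2-/-, Flt1 ran from -0.22 to 0.25, Cldn5 from -0.53 to 0.44, Pecam1 from -1.09 to 0.22, Cdh5 from -0.091 to 0.19, Tek from -0.84 to 3.68 and Ly6c1 from -0.048 to 0.26. For the difference of responses, Flt1 ran from -0.21 to 0.25, Cldn5 from -0.85 to 0.11, Pecam1 from -0.96 to 0.35, Cdh5 from -0.27 to 0.065 and Tek from -0.28 to 4.25.

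The groups share replicate numbers, but no label says that a number marks a shared animal, batch or day. Deviations from the group means correlated at -0.0536 to 0.117 over 19 same-numbered pairs, 1 of them over 0.1. For 9 of the 14 libraries the closest library of another group carried the same number. With a replicate block, 49 genes were called between genotypes under nSVE, 17 under SVE, 137 with exercise in wild type, 4 with exercise in Vipr2-/- and 0 for the difference of responses. Of the 9 members, 0 were called with exercise in wild type (Vegfa adjusted p = 0.0875) and 0 for the difference of responses.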
